A study of Homo sapiens with 6 samples.

Results

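The core autophagy machinery was followed here as 40 genes, matched by exact symbol among the 35035 genes of an expression table of HK-2 cells. HK-2 is an established human line that was derived from the proximal tubule of the kidney. Cells of one group had received a plasmid for overexpression of circAASS, a circular RNA named after its host gene AASS, and carry the genotype label circAASS-overexpressed. Cells of the other group had received the empty-vector plasmid and are labelled WT. Each group had 3 libraries of polyadenylated RNA. The cells of all 6 libraries had gone through 1% oxygen for 24 h and then reoxygenation for 12 h, so that a normoxic baseline was not analysed here. Per the labels, the rise of circAASS was checked before hypoxia; these are plasmid transfections of a single line, and a library sums over all its cells, so that a change per cell and a change in the share of cells that express a gene cannot be told apart.

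Macroautophagy wraps cytoplasm in a double membrane, the autophagosome, and delivers it to the lysosome. The ULK1 kinase complex starts the process, a class III PI 3-kinase complex marks the membrane with the lipid PI3P, ATG9A and the ATG2 and VMP1 proteins supply and move lipid, and PI3P is read by the WIPI family. A pair of ubiquitin-like conjugation reactions then fixes proteins of the ATG8 family, LC3 and GABARAP, to the membrane, where cargo receptors such as p62 bind them. The SNARE protein STX17 and the HOPS tethering complex join the closed autophagosome to the lysosome. In proximal tubule cells the pathway is known for clearing damaged mitochondria and protein aggregates after ischaemic injury.

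The libraries held 47384879 to 58179563 reads with the circAASS plasmid and 45148425 to 52470055 with empty vector. Values are RPKM, the reads of a gene scaled by its length and by the depth of the library. Fold changes are differences of log2(RPKM + 0.1) after scaling between libraries. AASS stood at 0.880 ± 0.0842 RPKM with the circAASS plasmid and 1.23 ± 0.141 with empty vector (SD, n = 3 each; limma adjusted p = 0.0721), which covers the host gene and does not check the circular RNA. Of 10 proximal tubule markers 6, among them LRP2, CUBN, AQP1 and HNF4A, averaged under 0.1 RPKM; the 10 summed to 48.8 to 54.5 RPKM in circAASS libraries and 37.7 to 38.7 in vector libraries. They did not move one way: PAX8 rose to 42.3 RPKM in circAASS libraries, against 25.0 in vector libraries, while SLC5A2 fell to 1.87 against 3.85 in vector libraries and GGT1 to 7.11 against 9.25 in vector libraries (limma adjusted p = 0.000242, 0.00118 and 0.00895). The 5 epithelial markers summed to 321 to 360 RPKM with the circAASS plasmid and 289 to 303 with empty vector; KRT8 and KRT18 rose, EPCAM fell to 22.1 RPKM in circAASS libraries against 26.8 in vector libraries (limma adjusted p = 0.0338, lost under 6 settings), and CDH1 averaged 0.0219 RPKM in circAASS libraries and 0.0659 in vector libraries. In circAASS libraries the 3 endothelial markers summed to 0.0512 to 0.0765 RPKM, the 3 leukocyte markers to 0.390 to 0.485 and the 4 fibroblast markers to 4.16 to 4.45. In vector libraries these sums were 0.0686 to 0.0868, 0.257 to 0.413 and 3.63 to 4.44 RPKM. RNAs without a poly(A) tail moved with the groups: RN7SK, whose call was lost under 5 settings, stood at 127 ± 67.7 RPKM in circAASS libraries and 38.6 ± 5.48 in vector libraries, RN7SL1 at 18.3 ± 4.85 in circAASS libraries and 9.43 ± 2.21 in vector libraries, and RN7SL2 at 12.9 ± 2.26 in circAASS libraries and 4.66 ± 1.57 in vector libraries. Their part, and that of the marker genes, in the results below was not tested. In the annotation, neighbouring genes overlap SLC5A2 by 40.7%, AQP1 by 26.5%, and RN7SK and RN7SL1 by 100% of exon length. For that reason the reads of SLC5A2, AQP1, RN7SK and RN7SL1 are uncertain.

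Of the 40 genes 39 passed the filter on low reads; MAP1LC3A did not. With the circAASS plasmid 16 were higher, 3 were lower and 20 did not pass (limma, adjusted p under 0.05 over all genes). Of all 19349 tested genes 32.4% passed, 16.4% higher and 16.0% lower, and their log2 fold changes had a median of -0.01. The autophagy genes had a median of 0.19. All but 3 of the 40 averaged at least 1 RPKM. In a fit of the 13342 genes with such a mean, 3015 were higher and 2345 lower, with a median of 0.03. The autophagy genes in that fit had a median of 0.19, with 16 higher and 3 lower. The changes were small: none of the 39 reached 2-fold, the log2 fold changes ran from -0.79 (ATG16L2) to 0.54 (RB1CC1), and the median size among those that passed was 0.33, against 0.46 over all genes that passed. In 27 of the 39 the deposited RPKM of the groups did not overlap, 17 higher and 10 lower; over all tested genes such separation was seen in 47.5%, 17.1% higher and 30.3% lower. How the calls divided into higher and lower changed with the scaling. When libraries were scaled by size only, 10 of the autophagy genes were higher and 7 lower, and over all genes 2159 were higher and 4023 lower, in place of 3172 and 3090; the median of the autophagy genes was then 0.11 and that of all genes -0.08. Without empty-vector library 2 the count of higher members was 10. The counts by role below, and those of the further lists, were not tested against the shares over all genes.

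**Figure D1:**
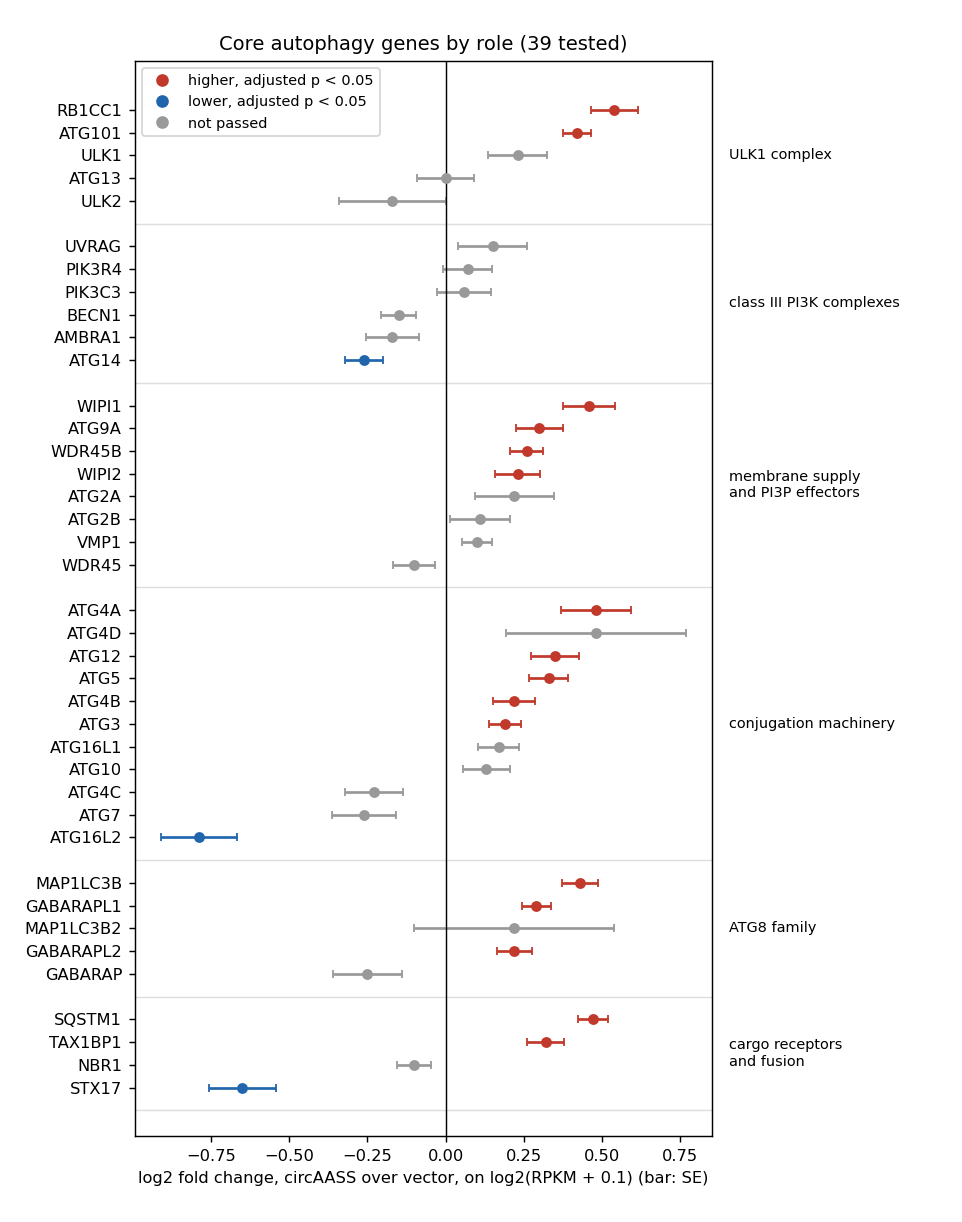
Log2 fold change, circAASS over vector, of the 39 tested autophagy genes (x axis, log2(RPKM + 0.1) scale), grouped by role down the page; points are limma estimates and bars their SE. Red points are the 16 that were higher, blue the 3 that were lower (ATG14, ATG16L2 and STX17) and grey the 20 that did not pass.

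Of the 19 calls, 11 held under all 13 alternative settings, 9 higher and 2 lower: RB1CC1, ATG101, WIPI1, ATG5, ATG12, MAP1LC3B, GABARAPL1, SQSTM1 and TAX1BP1 were higher, ATG16L2 and STX17 lower. Their adjusted p did not go above 0.0477 under any of these settings. The other 8 calls (ATG14, ATG9A, WIPI2, WDR45B, ATG3, ATG4A, ATG4B and GABARAPL2) were each lost under at least 1 setting.

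**Figure D2:**
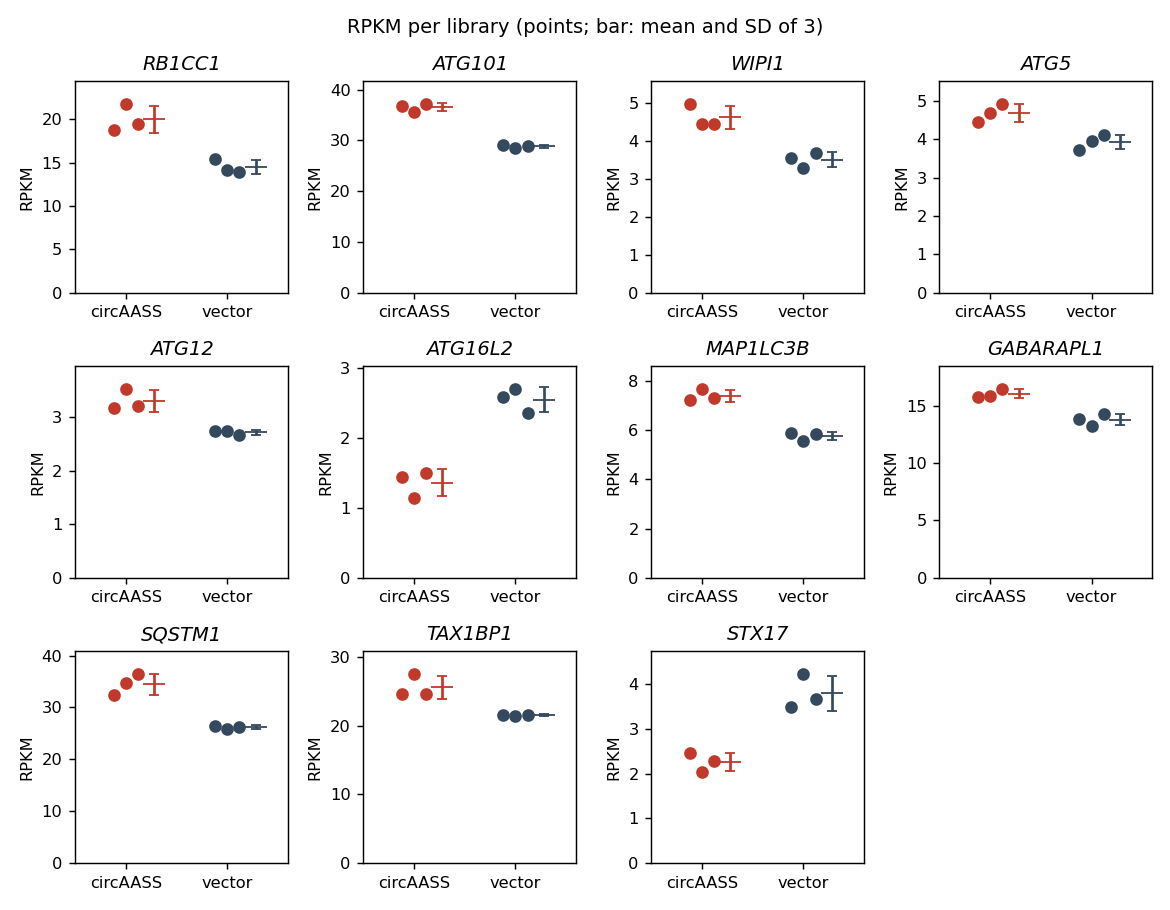
Deposited RPKM in each library (points) of the 11 autophagy genes whose calls held under every setting tried, circAASS left and vector right in each panel, with mean and SD of 3 libraries beside the points. In every panel the 3 circAASS libraries lie on a single side of the 3 vector libraries, below them for ATG16L2 and STX17 and above them for the other 9.

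The promoters of the autophagy genes were looked at for letters bound by factors known to drive such genes. These letters were CACGTG, the core of the E-box read by TFEB and TFE3, TGACNNNGC, the antioxidant response element of NRF2, and TGATGNAAN, an element of ATF4. RefSeq windows of 300 bases (250 before the start of a gene and 50 after it, build GRCh38.p14) matched 34 of the 40 genes by symbol, with 42 windows in all. Among the matched genes were 14 of the 16 that were higher and 2 of the 3 that were lower. RB1CC1, WDR45B and STX17 passed but had no window. On either strand CACGTG stood in windows of 2 of the 34 matched genes, TGACNNNGC in 2 and TGATGNAAN in 1. Of the 42 windows 4.76%, 4.76% and 2.38% held these letters, against 7.26%, 13.3% and 3.61% of all 35116 windows, so that these shares were not above those of all windows. The motifs do not overlap in the windows shown. The match to TGATGNAAN was in WDR45, which did not pass. The other 4 genes passed and are shown 5′ to 3′ on the gene's strand with the matched letters in capitals and positions counted from 1 at the 5′ end of the window. ATG101 (higher) and MAP1LC3B (higher) held TGACNNNGC from base 131 and base 205, ATG3 (higher) held CACGTG from bases 233 and 256, and ATG14 (lower) held it from base 230.
ATG101 promoter, chr12:52069728-52070027, plus strand: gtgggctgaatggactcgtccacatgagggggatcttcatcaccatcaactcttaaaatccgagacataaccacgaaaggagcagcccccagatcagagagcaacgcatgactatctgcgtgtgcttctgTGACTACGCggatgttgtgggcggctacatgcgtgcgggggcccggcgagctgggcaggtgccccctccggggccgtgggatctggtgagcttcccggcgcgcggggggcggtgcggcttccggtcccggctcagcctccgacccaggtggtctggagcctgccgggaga
MAP1LC3B promoter, chr16:87392086-87392385, plus strand: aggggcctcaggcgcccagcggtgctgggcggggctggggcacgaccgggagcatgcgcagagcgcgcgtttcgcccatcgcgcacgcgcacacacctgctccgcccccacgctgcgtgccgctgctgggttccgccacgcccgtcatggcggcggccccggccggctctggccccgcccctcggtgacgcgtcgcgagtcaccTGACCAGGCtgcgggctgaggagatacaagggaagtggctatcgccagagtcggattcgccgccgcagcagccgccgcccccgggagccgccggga
ATG3 promoter, chr3:112561913-112562212, minus strand: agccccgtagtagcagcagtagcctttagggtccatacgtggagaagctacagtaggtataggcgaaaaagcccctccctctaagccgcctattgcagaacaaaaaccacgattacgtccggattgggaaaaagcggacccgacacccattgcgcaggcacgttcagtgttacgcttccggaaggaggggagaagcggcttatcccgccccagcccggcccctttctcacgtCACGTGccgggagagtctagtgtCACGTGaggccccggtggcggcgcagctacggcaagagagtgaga
ATG14 promoter, chr14:55411781-55412080, minus strand: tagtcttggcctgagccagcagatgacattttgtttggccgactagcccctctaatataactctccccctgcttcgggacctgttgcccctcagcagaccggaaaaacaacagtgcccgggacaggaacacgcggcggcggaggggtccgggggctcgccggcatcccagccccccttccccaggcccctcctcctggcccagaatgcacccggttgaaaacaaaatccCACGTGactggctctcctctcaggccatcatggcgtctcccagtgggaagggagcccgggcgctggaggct
A match in these letters is a description of the sequence alone. Windows of SQSTM1, the autophagy gene with the smallest p, held none of the 3. Bases outside the windows were not searched for any gene.

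In the ULK1 complex 2 of 5 genes rose, the scaffold and an accessory subunit, and the others did not pass. Among all tested genes 16.4% were higher and 16.0% lower. Whether the kinases differed in their change from the genes that rose was not tested. RB1CC1, which encodes the scaffold FIP200 (chromosome 8, 52622456 to 52745843, GENCODE 29 on GRCh38), stood at 18.8, 21.8 and 19.4 RPKM with the circAASS plasmid, against 15.4, 14.2 and 13.9 with empty vector. The groups did not overlap, and the log2 fold change was 0.54 (SE 0.07, limma adjusted p = 0.00217). ATG101, which stabilises ATG13 in the complex (chromosome 12, 52069246 to 52077494), stood at 36.7, 35.7 and 37.2 RPKM in circAASS libraries and at 29.2, 28.5 and 28.8 in vector libraries, a log2 fold change of 0.42 (SE 0.04, limma adjusted p = 0.000847). Every circAASS library was above every vector library, and 19.2% of the exon bases of ATG101 are shared with an antisense neighbour. The kinase ULK1 averaged 4.09 ± 0.373 and 3.66 ± 0.284 RPKM in circAASS and vector libraries and its values overlapped (limma adjusted p = 0.0942); it passed only with voom on the recovered reads (limma adjusted p = 0.0141, range over all settings 0.0141 to 0.257). The other kinase, ULK2, had 6 to 25 reads with the circAASS plasmid and 14 to 28 with empty vector and did not pass (log2 fold change -0.17, SE 0.17). ATG13, the regulatory subunit that binds the kinase, stood at 1.83 ± 0.169 RPKM in circAASS libraries and 1.93 ± 0.0987 in vector libraries (log2 fold change 0.00, SE 0.09).

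None of the 6 genes of the class III PI 3-kinase complexes rose (limma, and 0 also at an unadjusted p under 0.05 and with voom), and 1 fell. That is 16.7% called, beside 32.4% over all tested genes, of which 16.4% were higher and 16.0% lower. The gene that fell was ATG14, the subunit that directs the complex to sites of autophagosome formation (chromosome 14, 55366392 to 55411858). It stood at 7.25, 6.64 and 7.30 RPKM with the circAASS plasmid and at 9.05, 9.13 and 8.71 with empty vector. The groups did not overlap (log2 fold change -0.26, SE 0.06, limma adjusted p = 0.0158), but the call was lost without vector library 1 or 2 (limma adjusted p up to 0.0615). BECN1, the beclin subunit shared by the complexes, lay lower, without overlap, at 11.12, 10.98 and 10.46 RPKM in circAASS libraries against 12.6, 12.8 and 12.7 in vector libraries, yet its adjusted p was 0.0769 (log2 fold change -0.15, SE 0.06); it passed with library size alone (limma adjusted p = 0.0123), with voom and without circAASS library 1. The catalytic subunit PIK3C3 averaged 2.09 ± 0.0762 and 2.10 ± 0.135 RPKM and its partner kinase PIK3R4 3.63 ± 0.213 and 3.64 ± 0.171 in circAASS and vector libraries, differences smaller than the spread between libraries. UVRAG, which takes the place of ATG14 in the complex of endosomes and later steps, averaged 1.082 ± 0.0463 RPKM in circAASS libraries and 1.021 ± 0.0894 in vector libraries. AMBRA1, a regulator of beclin and ULK1, averaged 1.64 ± 0.0895 RPKM in circAASS libraries and 1.95 ± 0.0979 in vector libraries; its groups did not overlap but it did not pass (limma adjusted p = 0.177).

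Of 8 genes for membrane supply and the reading of PI3P, 4 rose and 4 did not pass. The shares over all tested genes were 16.4% higher and 16.0% lower. Of the 4 members that rose, 3 belong to the WIPI family of PI3P-binding propellers. WIPI1 (chromosome 17, 68420948 to 68457513) stood at 4.99, 4.45 and 4.45 RPKM with the circAASS plasmid and at 3.56, 3.29 and 3.69 with empty vector (log2 fold change 0.46, SE 0.08, limma adjusted p = 0.00564). The groups were apart, although 28.1% of its exon bases face the antisense neighbours ARSG and AC007780.1, so that its reads are uncertain. WDR45B, also called WIPI3, stood at 9.36, 10.3 and 10.3 RPKM in circAASS libraries against 8.605, 8.999 and 8.792 in vector libraries; it was lost with library size alone (limma adjusted p = 0.0105, and 0.0549 with that scaling). WIPI2, which recruits ATG16L1, stood at 3.25, 3.58 and 3.85 RPKM in circAASS libraries against 3.15, 3.20 and 3.19 in vector libraries, close to the threshold (limma adjusted p = 0.0444). Its call was lost under 8 of the 13 settings, with all fits that left out a library except the fit without circAASS library 1 among them (limma adjusted p up to 0.187). WDR45, also called WIPI4, averaged 8.04 ± 0.599 RPKM in circAASS libraries and 9.10 ± 0.223 in vector libraries and did not pass (log2 fold change -0.10, SE 0.07). ATG9A, the membrane-spanning lipid scramblase, stood at 2.65, 2.52 and 2.71 RPKM in circAASS libraries against 2.33, 2.17 and 2.21 in vector libraries (limma adjusted p = 0.0217). Its call was lost under 6 settings, with library size alone and without circAASS library 1 or 3 or vector library 2 or 3 among them (limma adjusted p up to 0.075), and another gene on the same strand shares 38.8% of its exon bases. The lipid-transfer genes ATG2A and ATG2B averaged 1.38 and 1.26 RPKM with the circAASS plasmid and 1.24 and 1.23 with empty vector, and VMP1, a scramblase of the endoplasmic reticulum, 16.3 ± 0.560 in circAASS libraries and 16.0 ± 0.623 in vector libraries; none of the 3 passed.

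In the conjugation machinery 5 of 11 genes rose, 1 fell and 5 did not pass. That is 54.5% called, beside 32.4% over all tested genes, of which 16.4% were higher and 16.0% lower. ATG5 and ATG12, whose proteins are joined to each other in the ATG12 conjugation reaction, rose together. ATG5 (chromosome 6, 106045423 to 106325791) stood at 4.44, 4.69 and 4.92 RPKM with the circAASS plasmid and 3.73, 3.95 and 4.10 with empty vector (log2 fold change 0.33, SE 0.06, limma adjusted p = 0.00781). ATG12 (chromosome 5, 115828200 to 115841858) stood at 3.16, 3.53 and 3.22 RPKM in circAASS libraries against 2.75, 2.75 and 2.66 in vector libraries (log2 fold change 0.35, SE 0.08, limma adjusted p = 0.0127). Neither gene's groups overlapped. The remaining subunit of the conjugate comes from ATG16L1 or its paralogue ATG16L2, and these parted. ATG16L2 (chromosome 11, 72814308 to 72843674) stood at 1.44, 1.14 and 1.50 RPKM in circAASS libraries against 2.58, 2.70 and 2.36 in vector libraries, a log2 fold change of -0.79 (SE 0.12, limma adjusted p = 0.00319). All circAASS libraries were below all vector libraries. ATG16L1 stood at 3.55, 3.36 and 3.60 RPKM in circAASS libraries against 3.23, 3.23 and 3.35 in vector libraries, higher in each circAASS library but not past the test (limma adjusted p = 0.0792, range over settings 0.0706 to 0.324).

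ATG7, the activating enzyme of both reactions, averaged 1.29 ± 0.108 RPKM with the circAASS plasmid and 1.65 ± 0.0974 with empty vector; its groups did not overlap and it did not pass (limma adjusted p = 0.0895), but did with library size alone (0.046). ATG3, the conjugating enzyme of the ATG8 proteins, stood at 27.5, 28.5 and 26.6 RPKM in circAASS libraries against 25.3, 25.3 and 25.8 in vector libraries (log2 fold change 0.19, adjusted p = 0.0277). That call was lost with library size alone, without the filter and in all fits with a library left out but the one without circAASS library 3 (limma adjusted p up to 0.112). Among the ATG4 proteases, which trim and recycle ATG8 proteins, ATG4A stood at 2.04, 2.08 and 2.34 RPKM in circAASS libraries against 1.39, 1.58 and 1.86 in vector libraries (limma adjusted p = 0.0161), and was lost without circAASS library 3 or vector library 2 (limma adjusted p up to 0.0639). ATG4B stood at 3.59, 3.60 and 3.94 RPKM in circAASS libraries against 3.18, 3.42 and 3.44 in vector libraries (limma adjusted p = 0.0398), and was lost whichever library was left out (limma adjusted p up to 0.183 over all settings). ATG4C averaged 2.23 ± 0.170 and 2.76 ± 0.160 RPKM in circAASS and vector libraries without overlap or a call (limma adjusted p = 0.102; 0.038 with library size alone). ATG4D stood at 1.57, 2.18 and 1.32 RPKM in circAASS libraries against 1.57, 0.757 and 1.52 in vector libraries, the vector library 2 being low, and did not pass.

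ATG10, the conjugating enzyme of ATG12, stood at 40.7, 50.5 and 44.7 RPKM with the circAASS plasmid and 42.4, 43.5 and 45.1 with empty vector (limma adjusted p = 0.239), the highest mean of the 40 genes and far above its partner enzymes. The ribosomal protein gene RPS23 lies antisense to 6.9% of its exon bases. RPS23 had 15278, 22929 and 16896 reads in circAASS libraries, where ATG10 had 10646, 16019 and 11534. In vector libraries RPS23 had 14580, 16746 and 18045 reads, where ATG10 had 10419, 12104 and 12890. The reads of ATG10 were thus 0.683 to 0.723 of those of RPS23 in all 6 libraries. Whether the counting used strand is not given in the sources used here, so reads of these neighbours cannot be told apart, and the value of ATG10 is not taken as its level.

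**Figure D3:**
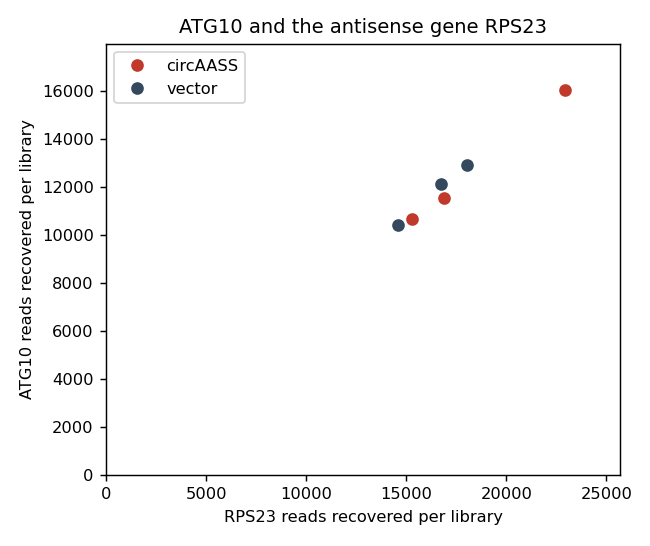
Reads recovered per library for ATG10 (y axis) against those of RPS23 (x axis), the gene antisense to part of it, with circAASS libraries in red and vector libraries in dark blue. The 6 points lie near a line through the origin, with ATG10 at 0.683 to 0.723 of the RPS23 reads.

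In the ATG8 family 3 of 5 tested genes rose and none fell (limma, and 0 fell also at an unadjusted p under 0.05 and with voom). Over all tested genes 16.4% were higher and 16.0% lower. MAP1LC3B, the LC3 protein by which autophagosomes are usually followed (chromosome 16, 87383995 to 87404779), stood at 7.24, 7.69 and 7.31 RPKM with the circAASS plasmid and at 5.88, 5.56 and 5.87 with empty vector (log2 fold change 0.43, SE 0.06, limma adjusted p = 0.00194). The groups were well apart. GABARAPL1 (chromosome 12, 10212458 to 10223130) stood at 15.7, 15.9 and 16.5 RPKM in circAASS libraries against 13.9, 13.3 and 14.3 in vector libraries (log2 fold change 0.29, SE 0.05, limma adjusted p = 0.00369), again without overlap. GABARAPL2 stood at 12.5, 14.1 and 13.9 RPKM in circAASS libraries against 12.2, 12.2 and 12.3 in vector libraries (limma adjusted p = 0.022); the call was lost with library size alone and in all fits with a library left out but the one without circAASS library 1 (limma adjusted p up to 0.125). GABARAP lay lower, by a narrow gap, at 5.54, 7.33 and 6.17 RPKM in circAASS libraries against 7.57, 7.37 and 8.88 in vector libraries, and did not pass (limma adjusted p = 0.129), though it did without circAASS library 2 (limma adjusted p = 0.03); other genes cover 55.7% of its exon bases, so its reads are uncertain. MAP1LC3A had 0 to 6 reads a library and was not tested.

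MAP1LC3B has a near copy, MAP1LC3B2 on chromosome 12 (116548105 to 116576448). The 2 coding sequences differ in 2 of 378 bases (99.5% identity) and in 1 amino acid. The 60 bases around each difference are shown from the GENCODE 29 transcripts, to show how alike the copies are, with the differing base in capitals and positions counted from 1 at the start codon.
MAP1LC3B coding bases 1 to 60: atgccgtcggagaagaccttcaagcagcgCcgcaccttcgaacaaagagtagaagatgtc
MAP1LC3B2 coding bases 1 to 60: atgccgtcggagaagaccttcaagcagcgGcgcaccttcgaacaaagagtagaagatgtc
MAP1LC3B coding bases 308 to 367: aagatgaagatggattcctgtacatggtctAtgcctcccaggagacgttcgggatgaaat
MAP1LC3B2 coding bases 308 to 367: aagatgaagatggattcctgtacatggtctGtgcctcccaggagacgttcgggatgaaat
Over whole transcripts 233 stretches of 75 bases are common to both genes, which is 4.18% of those of MAP1LC3B and 13.4% of those of MAP1LC3B2. MAP1LC3B2 had 8 to 26 reads with the circAASS plasmid and 6 to 22 with empty vector, whereas MAP1LC3B had 1840 to 2377 with the circAASS plasmid and 1410 to 1636 with empty vector. How reads were divided between the copies was not tested.

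Summed over the family per length of gene, the LC3 genes stood at 7.479, 8.001 and 7.428 RPKM with the circAASS plasmid and 6.004, 5.764 and 6.149 with empty vector, a difference of 1.66 RPKM. Of these sums MAP1LC3B alone gave 7.24, 7.69 and 7.31 RPKM in circAASS libraries and 5.88, 5.56 and 5.87 in vector libraries. The LC3 sum is thus close to that single gene. The GABARAP genes stood at 33.8, 37.3 and 36.6 RPKM in circAASS libraries against 33.7, 32.9 and 35.5 in vector libraries, a difference of 1.89 RPKM with overlap, which was 2.96 without circAASS library 1 and 1.17 without circAASS library 2. Two-sided exact permutation tests gave p = 0.1 for LC3 and p = 0.2 for GABARAP; with 3 libraries a group the smallest possible p is 0.1. The result for GABARAP depended on the scaling: after scaling between libraries its sums were 35.4, 38.5 and 36.7 RPKM in circAASS libraries and 33.1, 32.1 and 34.0 in vector libraries, a difference of 3.79 without overlap (exact permutation p = 0.1). The scaled difference for LC3 was 2.04 RPKM (exact permutation p = 0.1). LC3 genes made up 16.9% to 18.1% of the family's summed RPKM in circAASS libraries and 14.8% to 15.1% in vector libraries. The GABARAP sums and this share include GABARAP, whose reads are uncertain, with 55.7% of its exon bases covered by other genes.

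Of 4 genes for cargo receptors and fusion 2 rose and 1 fell, the fusion gene STX17 described below. Calls over all tested genes were 16.4% higher and 16.0% lower. The 2 that rose are among the 3 receptors. SQSTM1, which encodes p62, the receptor that links ubiquitinated cargo to LC3 (chromosome 5, 179806398 to 179838078), stood at 32.4, 34.7 and 36.5 RPKM with the circAASS plasmid and 26.5, 25.8 and 26.3 with empty vector. This was the smallest p of the 39 genes (log2 fold change 0.47, SE 0.05, limma adjusted p = 0.000748), with every circAASS library above every vector library; 22.0% of its exon bases face antisense neighbours, so that its reads are uncertain. TAX1BP1, a receptor for ubiquitinated aggregates (chromosome 7, 27739331 to 27844564), stood at 24.7, 27.6 and 24.6 RPKM in circAASS libraries against 21.6, 21.4 and 21.6 in vector libraries (log2 fold change 0.32, SE 0.06, limma adjusted p = 0.00643). NBR1, the receptor that acts with p62, stood lower, without overlap, at 8.56, 9.07 and 8.63 RPKM in circAASS libraries against 9.56, 9.83 and 10.3 in vector libraries, without passing (limma adjusted p = 0.197; 0.0478 with library size alone). The receptors thus did not all lie on a single side.

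STX17, the SNARE of the autophagosome that engages the lysosome (chromosome 9, 99906633 to 99970341), stood at 2.45, 2.04 and 2.28 RPKM with the circAASS plasmid, against 3.50, 4.23 and 3.66 with empty vector. All circAASS libraries lay below all vector libraries (log2 fold change -0.65, SE 0.11, limma adjusted p = 0.00403). Among the 3 members that fell, its log2 fold change lay between those of ATG16L2 and ATG14.

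A ratio of a pair of genes within a library does not depend on the scaling between libraries, so 11 pairs of paralogous or alternative members were compared in this way. A ratio was formed for 10; MAP1LC3A over MAP1LC3B had a library at 0. In 8 of the 10 the groups did not overlap. Single genes were apart in this way in 47.5% of all tested genes, and the share over ratios of other gene pairs was not computed. Each of the 8 had a two-sided exact permutation p = 0.1, the smallest this design allows. Adjusted over the pairs it was 0.125, so that none can pass a threshold of 0.05. ATG16L1 over ATG16L2 was 2.47, 2.95 and 2.41 with the circAASS plasmid and 1.25, 1.20 and 1.42 with empty vector, a difference of 1.01 on the log2 scale. GABARAPL1 over GABARAP was 2.84, 2.17 and 2.67 in circAASS libraries against 1.83, 1.80 and 1.61 in vector libraries, and GABARAPL2 over GABARAP 2.25, 1.92 and 2.26 in circAASS libraries against 1.62, 1.66 and 1.38 in vector libraries. WDR45 over WDR45B was 0.821, 0.851 and 0.749 in circAASS libraries, where WDR45B was the higher, and 1.05, 0.990 and 1.06 in vector libraries, where they were about level. ATG14 over UVRAG, the alternative subunits of the PI 3-kinase complexes, was 6.99, 6.15 and 6.46 in circAASS libraries against 8.32, 9.93 and 8.25 in vector libraries. ATG4A over ATG4B, ATG4C over ATG4D and WIPI1 over WIPI2 also parted, by 0.28, -0.76 and 0.24 on the log2 scale, WIPI1 over WIPI2 by a narrow gap, with a lowest ratio of 1.155 in circAASS libraries and a highest of 1.154 in vector libraries. ULK1 over ULK2 and ATG2A over ATG2B overlapped. The difference of ATG4C over ATG4D was -0.38 without vector library 2, and that of WIPI1 over WIPI2 was 0.12 without circAASS library 1. A ratio does not show which partner changed.

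**Figure D4:**
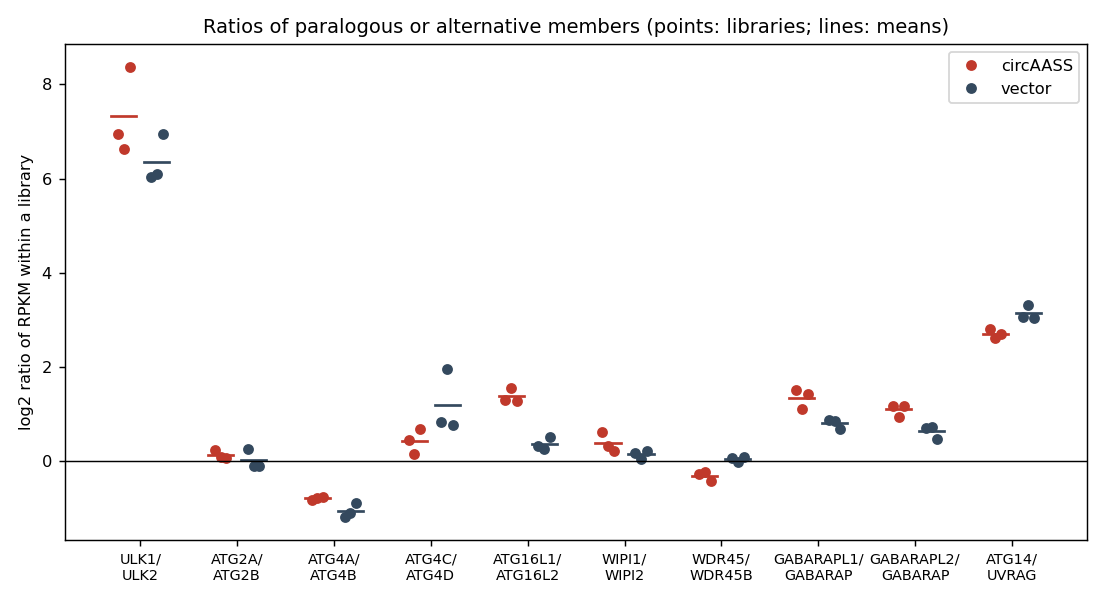
Log2 ratio of the RPKM of 2 members within each library (y axis) for 10 pairs (x axis), circAASS libraries left and vector libraries right in each pair; points are libraries and lines group means. The groups of ATG16L1 over ATG16L2 lie 1.01 apart without overlap, while those of ULK1 over ULK2, where ULK2 had 6 to 28 reads, overlap.

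Genes around the machinery, 61 in 5 lists that share no gene with the 40, were described next; 60 were tested, 17 rose, 7 fell and 36 did not pass, and the median log2 fold change was 0.02. These are 24 calls among 60 genes, beside 32.4% called over all genes, 16.4% higher and 16.0% lower. Without vector library 2 or 3 the count that rose was 10 or 11, and the count that fell was 4 without circAASS library 3 or any vector library. Of 14 genes for fusion and tethering 2 rose and 4 fell. VPS41 and VPS39, subunits of the HOPS tethering complex with which STX17 acts, fell to 7.95 ± 0.412 and 2.92 ± 0.150 RPKM with the circAASS plasmid, against 11.6 ± 0.381 and 4.51 ± 0.420 with empty vector (log2 fold changes -0.46 and -0.53, limma adjusted p = 0.00151 and 0.0036). VPS16, a subunit shared with another tether, stood at 7.58 ± 0.823 RPKM in circAASS libraries and 9.97 ± 0.341 in vector libraries (limma adjusted p = 0.0157), lost without vector library 1 (0.0528). The other HOPS subunits, looked up after the values of these were seen, did not pass. VPS11 averaged 2.19 and 2.73 and VPS18 3.59 and 3.90 RPKM in circAASS and vector libraries. VPS33A, with 21.5% of its exon bases shared with other genes, averaged 3.20 and 3.78 RPKM in circAASS and vector libraries. VPS11 and VPS33A lay lower without overlap (limma adjusted p = 0.0841 and 0.161), while VPS18 overlapped. VPS11 passed with library size alone (limma adjusted p = 0.0473) and with voom. YKT6, a SNARE that can also drive fusion, rose to 15.7 ± 1.28 RPKM in circAASS libraries against 13.3 ± 0.849 in vector libraries (limma adjusted p = 0.0103), and SNAP29, the partner of STX17, averaged 9.77 RPKM in circAASS libraries and 10.4 in vector libraries (limma adjusted p = 0.956).

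Of 10 regulators of transcription that act on autophagy genes, 5 rose and none fell (limma). At an unadjusted p under 0.05, 2 were lower, and with voom 1 was. Among all tested genes 16.4% were higher and 16.0% lower. MITF, among the 5, was close to the threshold (limma adjusted p = 0.0443), and its call was lost under 8 of 13 settings. TFE3, a relative of TFEB, rose to 11.2 ± 0.363 RPKM with the circAASS plasmid, against 8.46 ± 0.311 with empty vector (log2 fold change 0.48, limma adjusted p = 0.000979), while TFEB itself averaged 0.665 RPKM in circAASS libraries and 0.812 in vector libraries and did not pass. ATF4, the factor of the integrated stress response, stood at 136 ± 8.70 RPKM in circAASS libraries and 101 ± 3.68 in vector libraries (log2 fold change 0.50), and NFE2L2, which encodes NRF2, at 12.2 ± 0.385 in circAASS libraries and 10.6 ± 0.351 in vector libraries (0.28); both passed under all 13 alternative settings, and other genes share 20.9% of the exon bases of NFE2L2. Of 14 further cargo and ER-phagy receptors 5 rose and 1 fell. OPTN, the receptor optineurin, stood at 91.1 ± 2.68 RPKM in circAASS libraries and 80.0 ± 0.679 in vector libraries and RTN3, a receptor for tubules of the endoplasmic reticulum, at 7.13 ± 0.407 in circAASS libraries and 5.92 ± 0.226 in vector libraries (limma adjusted p = 0.00568 and 0.00702). SEC62, a receptor of the endoplasmic reticulum, averaged 40.3 RPKM in circAASS libraries and 35.9 in vector libraries, and CALCOCO2, which encodes the receptor NDP52, 25.7 in circAASS libraries and 22.0 in vector libraries, with calls lost without vector library 2 (limma adjusted p = 0.052 and 0.0609), that of CALCOCO2 also without vector library 3.

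Of 16 regulators of initiation 3 rose and 1 fell. That is 25.0% called, beside 32.4% over all tested genes. DAPK1, a kinase that acts on beclin, rose to 18.8 ± 2.43 RPKM with the circAASS plasmid, against 9.21 ± 0.320 with empty vector, a log2 fold change of 1.09 (SE 0.08, limma adjusted p = 0.000283) that exceeded every change in the machinery itself. TBK1, the kinase that phosphorylates cargo receptors such as optineurin, rose to 18.0 ± 1.10 RPKM in circAASS libraries against 13.98 ± 0.454 in vector libraries (log2 fold change 0.44). MTMR14, a phosphatase that removes PI3P, fell to 3.20 ± 0.158 RPKM in circAASS libraries against 4.70 ± 0.439 in vector libraries (log2 fold change -0.46, limma adjusted p = 0.00615). BCL2L1, which encodes a beclin-binding relative of BCL2, averaged 38.5 RPKM in circAASS libraries and 35.7 in vector libraries; its call was lost under 7 of 13 settings and 43.0% of its exon bases are shared with other genes. Of 6 tested remaining genes with an ATG name or function 2 rose and 1 fell. SNX30, a sorting nexin, averaged 3.73 RPKM in circAASS libraries and 2.94 in vector libraries, a call lost without circAASS library 3 (limma adjusted p = 0.053). TRAPPC8, a subunit of a trafficking complex, averaged 1.89 and EI24 18.3 RPKM in circAASS libraries, and 1.48 and 22.4 in vector libraries; TRAPPC8 rose and EI24 fell, with calls lost under 7 and 5 settings.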

How the data were processed

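Polyadenylated RNA of 6 libraries was sequenced as read pairs; groups and repeat numbers were taken from sample titles. The labels give 12 h of reoxygenation, which is used here, where the series' own text has 24 h. Per the submitters' processing notes, Trimmomatic 0.36, featureCounts of Subread 1.5.1, edgeR 3.12.1 and GRCh38 were used; the kit was stranded per the labels, and not given in the sources used here are the aligner, the annotation version and whether counting used strand. The authors deposited RPKM, 1 column per library, under a name that calls them counts; 28 gene names turned into dates were left out. The members and lists were chosen with earlier results of these data known.

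Whole reads were recovered with the union of exons in GENCODE 29: for 22385 of 24697 genes with 1 annotated length (90.6%) all values were whole within 0.02 reads; otherwise the smallest length that made them whole was used. Of read numbers from 1 to 20, 78.6% were even, mates being mostly counted separately, so counting error is larger than the reads imply. Because the unit is RPKM, limma 3.58.1 (R 4.3.3; trend, robust) tested log2(RPKM + 0.1), after scaling with trimmed-mean factors of 0.954 to 1.043; such fold changes understate the change of low genes. Genes needed 10 reads at the median library size in 3 libraries and 15 in all. Two-sided p-values were adjusted over 19349 genes by Benjamini-Hochberg (threshold 0.05). The fit was also run on simulated reads, without mates, in which the changed genes moved more than any autophagy gene here. That run does not speak to changes as small as these. The labels state no separate cultures, so the p-values speak only of spread among these libraries, which may be technical. Means ± SD are of deposited RPKM, n = 3. Members and list genes named here with 20% or more of exon bases covered by other genes have that share given, as their reads are uncertain. Named were all members, with values in each library for those that passed, lost a call or belong to a described pair. Up to 4 genes of smallest p in each further list were also named. SNAP29, VPS11, VPS18, VPS33A, TFEB and MITF were named outside this rule. One gene that this rule names is not reported here. Promoters are RefSeq windows. Ratios were tested with exact permutation (scipy 1.17.1); figures used matplotlib 3.10.9.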

Additional observations from a re-analysis of the deposited data

How the results depend on the processing

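Calls and fold changes were recomputed under 13 alternatives: library size alone, median-of-ratios factors, a pseudocount of 1 RPKM, no filter on low values, a mean of at least 1 RPKM, voom on the recovered reads, a replicate block and each of the 6 libraries left out. Genes under 1 RPKM, such as ULK2 and MAP1LC3B2, have no value under the stricter filter; within-library ratios were recomputed with each library left out, and summed RPKM also after scaling. No autophagy gene with a call under any of them changed its sign. With library size alone 10 autophagy genes were higher and 7 lower, and of the surrounding lists 13 were lower; with voom 5 autophagy genes were lower; without the filter 4 genes of the surrounding lists were lower. Leaving out a library gave 10 to 13 higher and 2 to 4 lower autophagy genes, 10 to 14 higher and 4 to 8 lower genes of the surrounding lists, and 2154 to 2749 higher and 1983 to 2925 lower genes over all, with the fewest calls over all genes in either direction without vector library 2. Fewer libraries were tested in these fits; for the other settings the cause was not tested. After scaling, the summed RPKM differed by 2.04 for the LC3 and 3.79 for the GABARAP genes (1.48 to 1.77 and 1.17 to 2.96 unscaled with a library left out). Repeat numbers do not mark a shared culture in the labels, and deviations of equal numbers correlated at -0.01, -0.02 and 0.02 over 19349 genes, so the numbers were not taken to pair the libraries. With the replicate block 13 autophagy genes were higher and 3 lower (2800 and 2647 over all genes), with WIPI2, ATG9A and ATG4B lost. ULK2, MAP1LC3A and MAP1LC3B2 had at most 28 reads a library, which limits the precision of their values.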
